A study of Mus musculus with 2 samples.

Results

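Proliferating mesenchymal cells were the tdTomato-positive lung cells in which cell cycle transcripts were found together, 635 of the 18351 cells that passed the filters, 580 from a bleomycin library and 55 from a saline library. A cell was taken as dividing when it held at least 500 genes, at most 10% mitochondrial UMIs (unique transcript molecules), at least 1 UMI in at least 6 of 14 cell cycle genes, and 0 UMIs of Ptprc and Epcam, which mark leukocytes and epithelial cells. The 14 genes were Mki67, Top2a, Cdk1, Ccnb1, Birc5, Cenpf, Cenpa, Ube2c, Tpx2, Hmmr, Nusap1, Prc1, Pclaf and Rrm2. The dividing cells were set against non-dividing cells of the same library that passed the same filters with none of the 14 genes, 7445 in bleomycin and 7378 in saline.

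The mice were 8 to 10 weeks old and carried Lepr-CreERT2;Rosa26-tdtomato, and their lungs had received bleomycin, a drug whose injury is followed by scarring, or saline as its control. In this genotype a tamoxifen-dependent Cre recombinase is driven from the leptin receptor gene and turns on the red protein tdTomato, which stays on in the descendants of a marked cell, so cells that never had the Cre active are not represented. Live tdTomato-positive cells that lacked CD45, EpCAM and CD31 were sorted, per the labels' protocols, and profiled by droplet single-cell RNA sequencing; the 32285 genes of the files include 0 features named for tdTomato or Cre. There was 1 library per treatment, and the labels state neither the number of mice nor the bleomycin dose, the day of collection or the tamoxifen schedule.

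A dividing cell copies its DNA in S phase, separates the copies in mitosis, and runs a gene programme for each task. Replication genes are switched on before S phase largely by E2F factors, and mitosis genes follow in G2 through the DREAM and MuvB complexes, which act at CHR elements, and through NF-Y, which binds CCAAT boxes. Most fibroblasts of the adult lung are quiescent, and after bleomycin fibroblasts enter the cycle while others take on inflammatory, matrix-producing or contractile states.

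The promoters of 4 of the genes that chose the cells are shown because they carry the elements through which the programmes are known to be timed. They run from 250 bases before to 50 bases after the gene start in RefSeq's GRCm38.p6 table, 5′ to 3′ on the gene's strand. Capitals mark 3 kinds of motif, read on both strands. CHR motifs are spelled TTTGAA or, in a variant form, TTCGAA. The box bound by NF-Y is spelled CCAAT, and 2 of them overlap where it meets its reverse complement in the Ube2c promoter. E2F motifs are spelled TTTGGCGC, with the further forms TTTCCCGC and TTTCGCGC. Ube2c (chr2:164769679-164769978, plus strand) encodes a ubiquitin-conjugating enzyme of mitotic exit, and Top2a (chr11:99024140-99024439, minus strand) untangles DNA before chromosomes part. Cdk1 (chr10:69352863-69353162, minus strand) is the kinase that drives mitosis, and Pclaf (chr9:65890073-65890372, plus strand) binds the replication clamp PCNA.
Ube2c: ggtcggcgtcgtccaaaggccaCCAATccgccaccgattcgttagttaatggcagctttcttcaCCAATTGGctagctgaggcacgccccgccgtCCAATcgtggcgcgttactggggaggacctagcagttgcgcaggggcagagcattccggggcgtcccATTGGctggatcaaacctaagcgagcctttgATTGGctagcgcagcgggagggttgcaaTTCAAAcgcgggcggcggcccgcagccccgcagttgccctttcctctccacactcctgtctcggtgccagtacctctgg
Top2a: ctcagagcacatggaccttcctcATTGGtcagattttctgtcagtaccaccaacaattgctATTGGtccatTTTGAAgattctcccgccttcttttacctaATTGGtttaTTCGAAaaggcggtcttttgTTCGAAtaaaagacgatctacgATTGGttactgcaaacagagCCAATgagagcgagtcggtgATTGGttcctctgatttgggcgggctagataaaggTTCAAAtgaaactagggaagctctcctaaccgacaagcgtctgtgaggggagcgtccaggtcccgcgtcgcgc
Cdk1: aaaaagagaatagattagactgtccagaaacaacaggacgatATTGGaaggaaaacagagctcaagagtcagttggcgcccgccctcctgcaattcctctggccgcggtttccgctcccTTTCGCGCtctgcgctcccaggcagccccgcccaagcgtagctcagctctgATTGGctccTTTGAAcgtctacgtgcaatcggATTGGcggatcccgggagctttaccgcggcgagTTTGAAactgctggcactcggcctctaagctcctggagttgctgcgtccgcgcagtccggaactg
Pclaf: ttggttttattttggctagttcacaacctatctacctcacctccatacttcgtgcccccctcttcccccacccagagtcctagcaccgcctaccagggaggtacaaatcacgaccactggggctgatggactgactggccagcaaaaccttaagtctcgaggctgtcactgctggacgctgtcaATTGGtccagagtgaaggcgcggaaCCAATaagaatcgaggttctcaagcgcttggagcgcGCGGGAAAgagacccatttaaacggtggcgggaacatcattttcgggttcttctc
The Ube2c and Top2a promoters held CHR and CCAAT motifs and no E2F motif, Cdk1 held all 3 kinds, and Pclaf held E2F and CCAAT motifs and no CHR motif. Of the 13 rule genes with a promoter in the table, 8 held a CHR motif, 11 a CCAAT box, 8 both and 2 an E2F motif. Over all 27025 genes with a promoter of this length in the table, 21.7% held a CHR motif, 41.1% a CCAAT box, 8.61% both and 2.12% an E2F motif. A gene with several promoters was counted when any of them held the motif. A mitosis and G2 list that shares no gene with the rule had 50 genes with a promoter. Of these, 35 (70%) held a CHR motif, 31 (62%) held CHR and CCAAT together, and 2 (4%) held E2F. Among 30 genes with a promoter from a replication and S phase list, 12 (40%) held an E2F motif and 5 (16.7%) a CHR motif. A match describes the letters in the window and shows no binding.

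Dividing cells made up 5.80% of the bleomycin cells that passed the filters (580 of 10001, exact Clopper-Pearson 95% interval 5.35 to 6.28) and 0.659% of the saline cells (55 of 8350, 0.497 to 0.857). These intervals, and all intervals below, cover counting error only, and with 1 library per treatment no test was possible. The bleomycin library was deeper, with 134732429 UMIs in 10138 barcodes against 60937359 UMIs in 8396 barcodes, so each cell was also thinned to 5000 UMIs. The thinned shares were 4.23% in bleomycin (3.83 to 4.66) and 0.530% in saline (0.370 to 0.737), after 799 bleomycin and 1750 saline cells with fewer UMIs were left out. Thinned to 2000 UMIs, they were 2.28% in bleomycin and 0.354% in saline. The bleomycin share was the higher of the pair at each depth.

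The number of rule genes per cell was spread over the whole range. Of the bleomycin cells without Ptprc or Epcam UMIs, 1374 held exactly 1 of the 14 genes, 174 held 3 to 5, 48 held 6, 281 held 13 or 14 and 174 held all 14, with 30 to 49 cells at each number from 7 to 12. In saline, 784 cells held 1 gene, 10 held 3 to 5, 3 held 6, 22 held 13 or 14 and 16 held all 14, with 2 to 10 cells at each number from 7 to 12. Just inside the threshold, the 48 bleomycin cells with 6 genes carried 7 to 41 UMIs of them (median 14), and the 3 saline cells carried 9 to 12 (median 10). Just outside, the 39 bleomycin cells with 5 genes carried 5 to 19 UMIs (median 10), and the 1 saline cell carried 5. A further 14 bleomycin cells and 1 saline cell had 6 or more rule genes but were left out for a Ptprc or Epcam UMI.

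**Figure D1:**
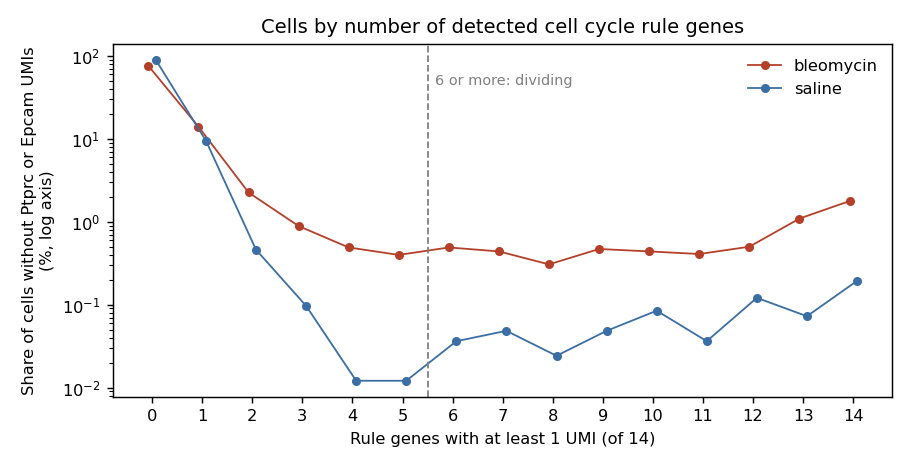
Share of cells without Ptprc or Epcam UMIs (percent, log axis) by the number of the 14 rule genes with at least 1 UMI, for the bleomycin and the saline library. Both lines fall steeply from 0 to 4 genes and turn up again to 174 bleomycin and 16 saline cells with all 14, and the dashed line marks the threshold of 6.

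The marker genes given for these cells fitted the label, which is a description, since the rule used them. Mki67 (chr7:135689784-135716361 in GRCm38), the antigen of the Ki-67 proliferation stain, was found in 87.1% of dividing bleomycin and 90.9% of dividing saline cells. Top2a was found in 82.8% and 92.7% of the same groups. Birc5 (chr11:117849251-117855743), which encodes survivin of the chromosomal passenger complex, was found in 96.9% of dividing bleomycin and 89.1% of dividing saline cells. Ube2c had the most UMIs of the 14, with 604 CPM (UMIs of the gene per 1000000 UMIs of the group) in dividing bleomycin cells and 844 CPM in dividing saline cells. Pclaf was found in 92.8% of dividing bleomycin and 74.5% of dividing saline cells, and Rrm2, which makes deoxyribonucleotides, in 73.3% and 50.9%. Together the 14 genes held 0.363% of the UMIs of dividing bleomycin cells and 0.535% in dividing saline cells.

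Markers of other cell types were low in the dividing cells. Of 10 epithelial, 9 endothelial and 12 leukocyte markers, 0 reached 50 CPM in dividing cells of either library, and of 8 mesothelial markers 1 did, Msln with 53.6 CPM in saline, all from 1 cell. At least 3 epithelial markers were found in 11 dividing (1.90%) and 110 non-dividing (1.48%) bleomycin cells, and in 1 dividing (1.82%) and 86 non-dividing (1.17%) saline cells; the dividing cells were deeper, and these shares were not thinned. The epithelial list summed to 49.9 CPM in dividing against 277 CPM in non-dividing bleomycin cells, and to 53.6 CPM in dividing against 585 CPM in non-dividing saline cells. Of the non-dividing sums, Scgb1a1 alone gave 155 CPM in bleomycin and 452 CPM in saline. In bleomycin most of its non-dividing UMIs came from 1 cell, as given further on. The epithelial sums are thus not read as a difference across the list. Epcam and Cdh1 were at 0 in dividing cells of both libraries, and Epcam and Ptprc were at 0 by rule. The endothelial list summed to 61.1 CPM in dividing and 55.8 CPM in non-dividing bleomycin cells, and to 21.9 and 35.1 CPM in the same saline groups, where 6 of its 9 genes, Pecam1 and Cdh5 among them, were at 0 in dividing cells. The leukocyte list summed to 13.9 CPM in dividing and 27.3 CPM in non-dividing bleomycin cells, and to 16.4 and 29.1 CPM in saline. Pericyte markers summed to 233 CPM in dividing and 333 CPM in non-dividing bleomycin cells, and to 197 and 251 CPM in saline.

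Dividing cells held more RNA molecules than the cells they are compared with, and the rule itself leans this way. Their median was 22819 UMIs and 4513 genes in bleomycin, against 10891 UMIs and 2972 genes in non-dividing bleomycin cells. In saline the dividing cells had a median of 17464 UMIs and 4225 genes, and the non-dividing cells 6731 UMIs and 2276 genes. The rule asks for several detected genes in one group and for none in the other, which favours deep against shallow cells. Among bleomycin cells not taken as dividing, the median was 13553 UMIs with 1 rule gene and 17293 UMIs with 5. How much of the depth gap comes from the rule was not tested. The median mitochondrial share was 1.59% in dividing and 1.91% in non-dividing bleomycin cells, and 1.604% and 1.87% in the same saline groups. A doublet caller, Scrublet at an expected rate of 7%, marked 0 of 10001 bleomycin cells and thus did not work there, and marked 66 saline cells, of which 0 were dividing. Doublets were not removed; 83 of the 580 dividing bleomycin cells (14.3%) but 285 of the non-dividing cells (3.83%) were among the 5% with the highest doublet scores. Without those cells 480 genes were apart between dividing and non-dividing bleomycin cells, against 409 with them, by the size rule given further on. Of 25 cell barcodes that occurred in both libraries, 4 were dividing bleomycin cells and 0 were dividing in both.

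To see which fibroblast states the dividing cells carried, the non-dividing cells of both libraries were clustered without cell cycle genes, and each dividing cell was placed in the state that most of its 15 nearest non-dividing cells of the same library had. Names were given only from marker lists, with a cluster called "like" a type. In bleomycin, 355 of the 580 dividing cells (61.2%, 57.1 to 65.2) were placed in the fibrotic fibroblast-like cluster, led by Spp1, Cthrc1, Thbs4, Fst, Inhba and Grem1, where 25.5% of the non-dividing cells lay. The inflammatory fibroblast-like cluster, led by Saa3, Hp, Lcn2, Cxcl13 and Csf3, took 154 dividing cells (26.6%, 23.0 to 30.4) against 42.1% of the non-dividing cells. Adventitial fibroblast-like cells, led by Pi16, Aqp1 and Ly6a, were 4.48% of dividing and 14.05% of non-dividing cells. The dividing cells of the bleomycin lung thus lay mostly in 1 state.

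The smaller bleomycin states each held few dividing cells. The peribronchial and ductal myofibroblast-like cluster, with Hhip and Aspn, took 20 (3.45%, against 7.01% of non-dividing cells), and the smooth muscle-like cluster, led by Myh11, took 13 (2.24%, against 5.76%). The mesothelial-like cluster, led by Msln and Upk3b, took 9 (1.55%, against 1.06%), and 2 dividing cells were placed in the epithelial-like cluster, with a median of 73619 UMIs. At a finer resolution an endothelial-like cluster (26 non-dividing bleomycin cells) stood apart from the epithelial-like cluster (46). There the endothelial-like cluster took 2 dividing cells and the epithelial-like cluster 0. The name epithelial-like at the main resolution may thus cover endothelial cells too. None of the 123 bleomycin cells in the alveolar fibroblast-like cluster, led by Slc7a10 and Inmt, was dividing, which allows a share of up to 2.44%.

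The non-dividing cells of the states differed in depth, with a median of 13822 UMIs in the fibrotic and 9379 UMIs in the adventitial cluster of bleomycin. The shares were therefore also set against non-dividing cells matched individually to the dividing cells on UMI total. The medians were close, but the deepest dividing cells had no equal. The deepest matched cell had 55490 UMIs against 114097 for the deepest dividing cell in bleomycin, and 30945 against 38099 in saline. Of these matched bleomycin cells, 48.6% lay in the fibrotic cluster (44.5 to 52.8), against the 61.2% of dividing cells. The inflammatory cluster held 33.8% of matched cells (29.9 to 37.8) and the adventitial cluster 8.10%, against 26.6% and 4.48% of dividing cells. The dividing cells were more often fibrotic than the matched cells by more than the counting error, and the gap was smaller than against all non-dividing cells. For the inflammatory and adventitial clusters the intervals of dividing and matched cells overlapped. Here and below, an overlap of separate intervals does not by itself show that the shares were alike.

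**Figure D2:**
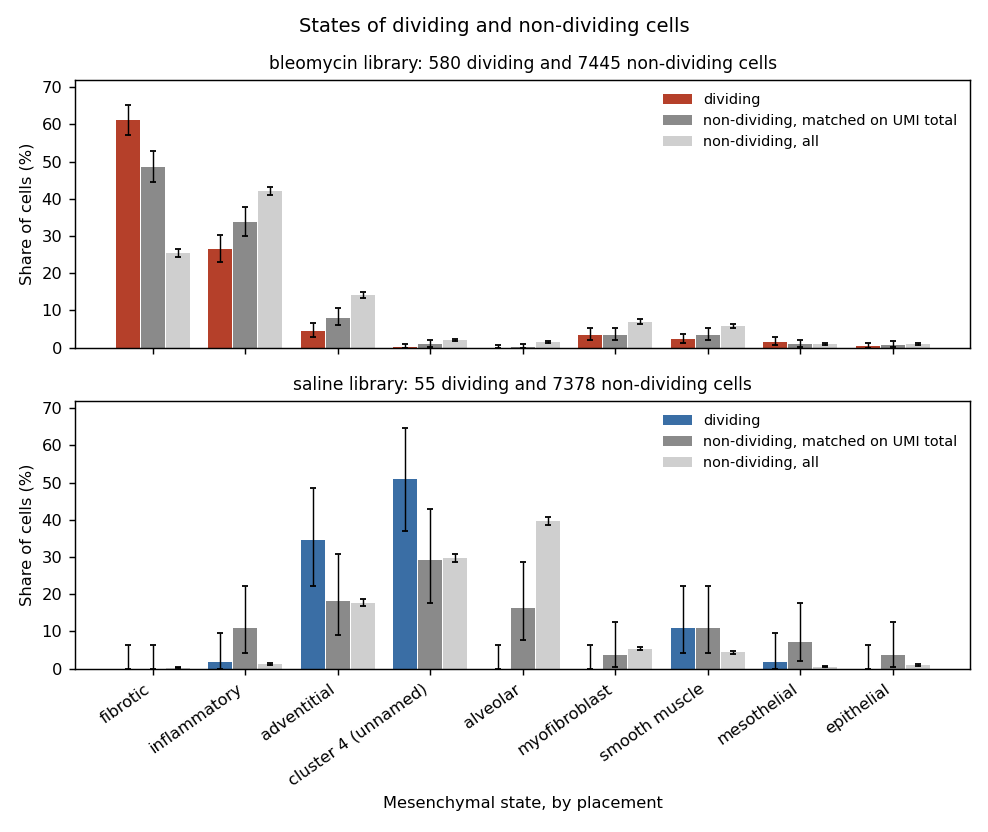
Share of cells (percent) placed in each mesenchymal state, with the bleomycin library above and the saline library below; bars show dividing cells, all non-dividing cells and non-dividing cells matched on UMI total, and lines are exact 95% intervals. The fibrotic state held 61.2% of dividing and 25.5% of non-dividing bleomycin cells, and unnamed cluster 4 held 50.9% of dividing and 29.7% of non-dividing saline cells.

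The dividing cells of saline lungs lay in other states. Unnamed cluster 4, led by Cxcl9, Tpm3-rs7 and Ch25h, took 28 of 55 (50.9%, 37.1 to 64.7) against 29.7% of non-dividing cells. It stayed unnamed because its median marker ratio was nearly the same for the interferon-responding list (0.58 on the log2 scale) and the alveolar fibroblast list (0.53). The adventitial fibroblast-like cluster took 19 (34.5%, 22.2 to 48.6) against 17.7%, and the smooth muscle-like cluster 6 (10.9%, 4.11 to 22.3) against 4.36%. The Slc7a10-led alveolar fibroblast-like cluster held 39.7% of non-dividing saline cells and 0 of the 55 dividing cells. Among depth-matched non-dividing saline cells, the alveolar cluster held 16.4% (7.77 to 28.8), cluster 4 held 29.1% (17.6 to 42.9) the adventitial cluster 18.2% (9.08 to 30.9) and the smooth muscle-like cluster 10.9%. At matched depth the intervals of dividing and non-dividing saline cells overlapped for cluster 4, the adventitial and the smooth muscle-like cluster. This does not show that those shares were alike. For the alveolar cluster the intervals did not overlap.

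Turned round, 11.9% of all bleomycin cells placed in the fibrotic state were dividing (355 of 2983, 10.8 to 13.1), against 3.86% in the inflammatory state (154 of 3985, 3.29 to 4.51). The share was 3.26% in peribronchial and ductal myofibroblast-like, 2.49% in smooth muscle-like and 2.15% in adventitial fibroblast-like cells, and these 3 intervals overlap each other. The mesothelial-like state had 7.76% (9 of 116, 3.61 to 14.2). Thinned to 5000 UMIs, the fibrotic and inflammatory shares were 7.98% (7.01 to 9.05) and 3% (2.49 to 3.59). In saline the share was 1.59% in smooth muscle-like, 1.31% in adventitial fibroblast-like and 1.13% in cluster 4 cells, with overlapping intervals. It was 0 of 3291 in the Slc7a10-led alveolar fibroblast-like cluster, which allows up to 0.0912% at a limit of 3 counts. That limit holds for this clustering alone. At a finer resolution the clusters with the alveolar name held 25 dividing saline cells, 0.448% of 5586. The fibrotic state thus had the highest dividing share of the bleomycin states with at least 100 cells, although its interval overlapped that of the mesothelial-like state.

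**Figure D3:**
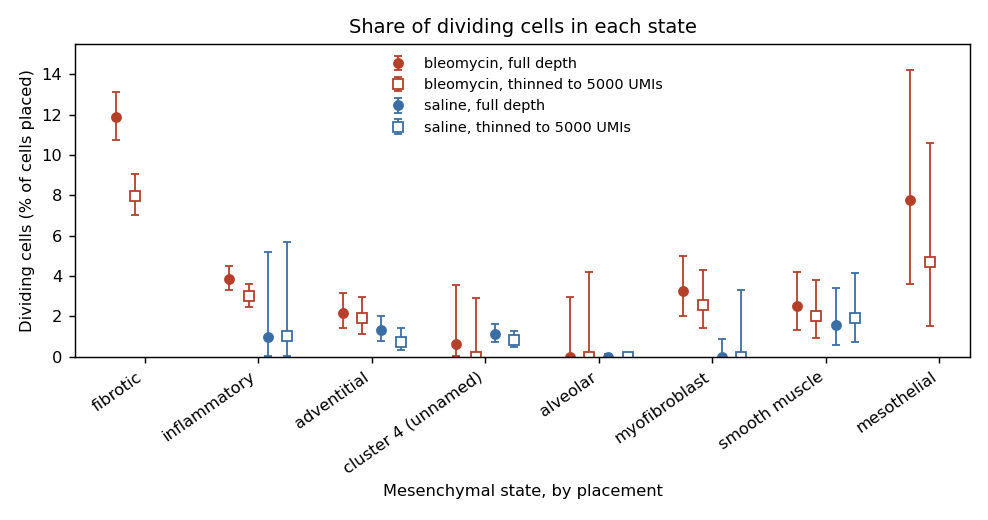
Share of the cells placed in each state that were dividing (percent, exact 95% intervals), for bleomycin and saline, as counted and after thinning each cell to 5000 UMIs; states with fewer than 100 cells in a library are left out. The fibrotic state reached 11.9% in bleomycin, and the Slc7a10-led alveolar fibroblast-like cluster of saline had 0 of 3291. At a finer clustering resolution, not drawn, the saline clusters with the alveolar name had 0.448%.

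The placements were clearer in bleomycin than in saline. All 15 neighbours lay in 1 cluster for 402 dividing bleomycin cells (69.3%) and for 27 dividing saline cells (49.1%). Whether the saline cells count as alveolar depended on the clustering: at a finer resolution 25 of 55 (45.5%), and after thinning 24 of 46 (52.2%), fell in clusters that carried the alveolar name, those led by Tpm3-rs7. With neighbours from both libraries allowed, 7 of the 55 dividing saline cells (12.7%) were placed among fibrotic cells, a cluster of 1896 non-dividing bleomycin and 21 non-dividing saline cells.

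In the smaller states the placed cells held some marker genes of their state, here each at a lower level than the non-dividing cells; this is a description, since these genes placed them. The 9 dividing mesothelial-like cells all held Msln, mesothelin, with 2008 CPM against 4313 CPM in the non-dividing cells of that state. Of the 26 dividing adventitial cells of bleomycin 21 held Pi16 (328 against 577 CPM) and all 26 held Col14a1 (596 against 673 CPM). Of the 19 dividing adventitial cells of saline 10 held Pi16 (167 against 521 CPM). The 13 dividing smooth muscle-like cells of bleomycin all held Myh11, the smooth muscle myosin heavy chain, with 845 against 1570 CPM, and the 6 of saline with 891 against 2714 CPM. In saline cluster 4, 23 of 28 dividing cells held Tcf21 (172 against 403 CPM).

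The dividing cells differed among themselves in phase. UMIs of the replication list (40 genes, such as Pcna, Tyms and Tk1) and the mitosis list (60 genes, such as Ccna2, Plk1 and Stmn1) were counted per cell. In the median dividing bleomycin cell 19.4% of these UMIs came from the replication list (quartiles 10.3 and 39.4, range 0 to 73.3), and 80 of 580 cells (13.8%, 11.1 to 16.9) held more replication than mitosis UMIs. In saline the median was 13.7% (range 2.44 to 68.6), and 6 of 55 cells (10.9%, 4.11 to 22.3) held more replication UMIs. Within 10 points of an even split lay 123 bleomycin and 7 saline cells, so the split is a range and marks no separate types. Most of the 14 rule genes are genes of G2 and mitosis, with Pclaf and Rrm2 the exceptions, so the rule itself leans to these phases.

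By state, the fibrotic dividing cells had a median replication share of 22.3%, with 50 of 355 (14.1%) on the replication side. The inflammatory dividing cells had 13.9%, with 18 of 154 (11.7%) on that side. The replication list summed to 1958 CPM in fibrotic and 2337 CPM in inflammatory dividing cells, and the mitosis list to 5968 and 9565 CPM. The 2 states differed more in mitosis CPM than in replication CPM.

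**Figure D4:**
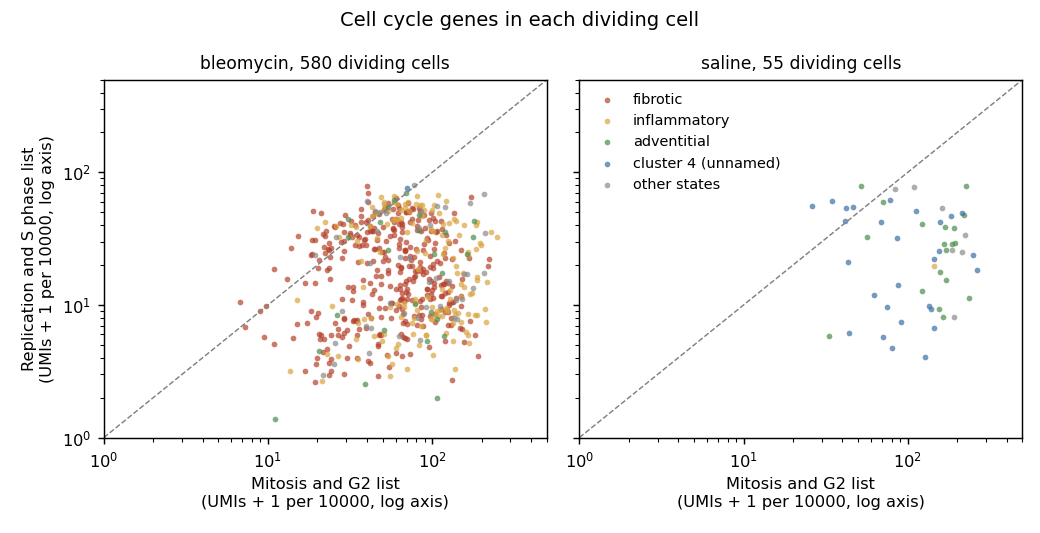
Each point is 1 dividing cell, with UMIs (plus 1) as a proportion of the cell's total for the mitosis and G2 list on the horizontal axis and for the replication and S phase list on the vertical axis, both logarithmic, coloured by state, bleomycin left and saline right. Most points lie below the dashed line of equal counts, as 80 of 580 bleomycin and 6 of 55 saline cells held more replication than mitosis UMIs.

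For genes, UMIs were summed over the cells of a group and given as CPM, and a gene was called apart when it differed at least 2-fold among genes with at least 50 CPM in either group. This rule describes these libraries and is no test. Between dividing and non-dividing bleomycin cells 409 of 3051 genes were apart (13.4%), 224 higher (7.34%) and 185 lower (6.06%) in dividing cells. In saline 837 of 3394 were apart (24.7%), 519 higher (15.3%) and 318 lower (9.37%). The median log2 ratio over all genes was 0.06 in bleomycin and 0.16 in saline. Against depth-matched bleomycin cells 245 genes were apart, 195 higher and 50 lower, and at the same mixture of states 255, 196 higher and 59 lower, so the lower calls depended most on the cells compared. Bleomycin list counts given below for these settings stand beside these low totals, so a list with 0 genes apart there says little by itself. No such total is given for saline. Of 2835 genes compared in both libraries, 204 were higher in dividing cells of both, 117 lower in both and 2 opposite, and 138 of the 204 were in none of the cell cycle lists.

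Replication genes outside the rule were higher in dividing cells throughout, though the rule chose on this contrast and nothing is read from the counts. All 12 replication genes past 50 CPM in bleomycin and all 22 in saline were at least 2-fold higher. Pcna, the sliding clamp of the replication fork, had 220 CPM in dividing and 61.8 CPM in non-dividing bleomycin cells, a ratio of 3.55. Tk1, a thymidine kinase, had 68.2 against 0.393 CPM, a ratio of 174. Tyms, which makes thymidylate, had 171 against 18.4 CPM, and the helicase subunit Mcm7 had 55.4 against 5.36 CPM.

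The mitosis list behaved the same way, with 33 of 33 genes in bleomycin and 48 of 49 in saline at least 2-fold higher in dividing cells. Ccna2, cyclin A2, had 106 CPM in dividing and 0.258 CPM in non-dividing bleomycin cells, a ratio of 410 (273 to 649). Cdc20, an activator of the anaphase-promoting complex, had 99.0 against 0.898 CPM, and the kinase gene Plk1 had 55.7 against 0.258 CPM. Stmn1, a regulator of microtubules, was the most abundant of those named, with 1350 CPM in dividing against 43.5 CPM in non-dividing bleomycin cells. Outside the lists, the largest ratios in bleomycin were those of Depdc1a (58.7 against 0.112 CPM, 523-fold, 283 to 1095), the kinetochore scaffold gene Knl1 (466-fold) and Pimreg (427-fold). In saline, Pbk had 0 UMIs in non-dividing cells and was at least 3856-fold higher in dividing cells, taking 3 counts as the limit, and Depdc1a at least 1669-fold higher.

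Chromatin genes are given as a description too, since the cells were chosen on cell cycle genes and some, such as Dnmt1 and Ezh2, passed the 50 CPM floor in dividing cells alone. Of 11 genes of DNA methylation and heterochromatin measured in bleomycin, 10 were at least 2-fold higher in dividing cells (median log2 ratio 2.32), and in saline 11 of 13 (2.87). Dnmt1, which copies methylation to new DNA, had 60.5 CPM in dividing and 10.7 CPM in non-dividing bleomycin cells, and Ezh2, the Polycomb methyltransferase, 70.1 against 11.9 CPM. Hmgb2, a chromatin protein of dividing cells, had 656 against 80.2 CPM in bleomycin and 1064 against 83.7 CPM in saline. The histone variant gene H2afz had 2812 CPM in dividing and 406 CPM in non-dividing bleomycin cells. The linker histone gene Hist1h1b had 106 against 0.606 CPM; clustered histone genes resemble each other, and their reads may be shared. All of these ratios were above the 2-fold line in both libraries.

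The entry genes of the cycle were mixed. Ccnd1, cyclin D1, had 99.2 CPM in dividing and 38.4 CPM in non-dividing bleomycin cells (2.58-fold higher, 2.43 to 2.75) and 60.2 against 16.2 CPM in saline (3.72-fold). Ccnd2, cyclin D2, went the other way, with 62.5 against 157 CPM in bleomycin (2.51-fold lower) and 33.9 against 117 CPM in saline (3.46-fold lower). Cdk4, their kinase partner, had 219 against 111 CPM in bleomycin. Of 18 CDK inhibitor and quiescence genes, 11 were measured in bleomycin, with 1 higher and 2 lower, and 14 in saline, with 1 higher and 6 lower. The higher gene in both was Cdkn2d, which encodes the p19 inhibitor of CDK4 and CDK6, with 123 against 37.4 CPM in bleomycin and 226 against 65.3 CPM in saline. The lower genes included Klf9 and Zfp36l1 in both libraries and Txnip, Btg2, Foxo3 and Cdkn1c in saline. Cdkn1a, the p21 inhibitor, had 361 CPM in dividing and 662 CPM in non-dividing bleomycin cells, which is 1.83-fold lower and short of the line.

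Genes of nucleotide supply and nuclear transport were partly higher. Dtymk, Nme1 and Ran were at least 2-fold higher in dividing cells of both libraries, out of 8 measured in bleomycin and 9 in saline; Ran had 1036 against 279 CPM in bleomycin. Of 10 glycolysis genes in bleomycin 0 were apart, beside 13.4% of all genes, so nothing is read from this count. In saline Pgk1 was higher, with 153 against 55.6 CPM, and Aldoa lower, with 93.0 against 368 CPM. Immediate early and heat shock genes, which tissue digestion is known to induce, were lower for 4 of 15 in bleomycin (Atf3, Hspa1a, Hspa1b and Dnajb1) and for 7 of 15 in saline. Hspa1a had 94.8 CPM in dividing and 235 CPM in non-dividing bleomycin cells, and 140 and 398 CPM in saline.

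Alveolar fibroblast genes were lower in dividing cells of both libraries. Of 9 measured in bleomycin, 6 were at least 2-fold lower and 0 higher (median log2 ratio -1.16), and of 11 in saline, 10 were lower and 0 higher (-1.82). Inmt (chr6:55170626-55175043), a methyltransferase gene abundant in alveolar fibroblasts, had 89.0 CPM in dividing and 478 CPM in non-dividing bleomycin cells (5.37-fold lower, 5.08 to 5.68). In saline it had 277 against 2911 CPM (10.5-fold lower, 9.29 to 11.9). Tcf21, a transcription factor of lipofibroblasts, had 51.8 against 157 CPM in bleomycin and 171 against 513 CPM in saline. Npnt, an integrin ligand of the basement membrane, had 303 CPM in dividing and 1067 CPM in non-dividing saline cells. After thinning to 5000 UMIs, Inmt was found in 22.5% of dividing and 46.2% of non-dividing bleomycin cells, and in 37.0% and 91.6% of the same saline groups. The epithelial-like cluster showed it in 11.9% of 42 bleomycin and 48.8% of 41 saline cells at that depth. The saline share in dividing cells was thus not above that of this cluster. How much of either share is background was not tested. By state and without thinning, dividing saline cells had 400 CPM in cluster 4 (18 of 28 cells held the gene). They had 108 CPM in the adventitial state (5 of 19) and 18 CPM in the smooth muscle-like state (2 of 6). Matched on UMI total, 3 of 9 genes in bleomycin and 7 of 10 in saline were still at least 2-fold lower. Over all genes, against all non-dividing cells, 6.06% in bleomycin and 9.37% in saline were lower, and the shares at matched depth are not given.

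Retinoid and lipid genes, which alveolar lipofibroblasts are known for, were lower in part. In bleomycin Rbp4, Adh1 and G0s2 were lower of 8 measured, and in saline 7 of 10 were. G0s2, an inhibitor of fat breakdown, had 61.2 CPM in dividing and 185 CPM in non-dividing bleomycin cells, and 153 against 747 CPM in saline. Aldh1a1, which makes retinoic acid, had 112 against 526 CPM in saline.

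Adventitial fibroblast genes were lower in dividing bleomycin cells for 6 of 8 measured (median log2 ratio -1.24) and in dividing saline cells for 4 of 8 (-0.77). Pi16, a marker of adventitial progenitor-like cells, had 14.8 CPM in dividing and 69.4 CPM in non-dividing bleomycin cells (4.70-fold lower). Clec3b had 46.0 against 217 CPM (4.73-fold lower), and the proteoglycan gene Dcn had 343 against 813 CPM (2.37-fold lower). Against depth-matched cells the bleomycin median was -0.76, and against non-dividing cells weighted to the same mixture of states it was -0.55. In each of these settings 2 genes were at least 2-fold lower.

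The fibrotic list was only slightly higher in the dividing cells of the bleomycin lung, even though most of them lay in the fibrotic state. Of 12 genes 1 was at least 2-fold higher and 0 lower (median log2 ratio 0.42). Cthrc1 (chr15:39076932-39087121), a secreted protein that marks collagen-producing fibroblasts, had 418 CPM in dividing and 192 CPM in non-dividing cells (2.18-fold, 2.11 to 2.24), and was found in 47.6% and 20.7% of them. Thinned to 5000 UMIs, it was found in 33.8% of dividing and 16.0% of non-dividing cells, against 7.14% in the epithelial-like cluster. Spp1 (chr5:104435118-104441050), osteopontin, had 8749 CPM in dividing and 6495 CPM in non-dividing cells (1.35-fold). Its thinned shares, 62.7% and 45.6%, lie beside 50% in the epithelial-like cluster, so they are not read as shares of cells that express it. Tnc, tenascin C, had 746 against 400 CPM (1.87-fold), and Fst, follistatin, which binds activin, had 503 against 263 CPM (1.91-fold). Inhba, the activin subunit, had 251 against 131 CPM (1.92-fold). Col1a1 had 4159 against 3461 CPM (1.20-fold). With depth-matched cells the list's median was -0.026, and at the same mixture of states it was -0.030, with 0 of 12 genes apart in each.

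Inside the fibrotic state, 355 dividing cells were set against 1896 non-dividing cells, and 264 of 2944 genes were apart (8.97%), 181 higher (6.15%) and 83 lower (2.82%). The fibrotic genes placed these cells, so they are given as a description: 0 of 12 were apart, with a median log2 ratio of -0.07. Cthrc1 had 588 CPM in dividing and 543 CPM in non-dividing fibrotic cells, Postn 317 against 298 CPM, and Col1a1 4954 against 5318 CPM. Spp1 was 1.56-fold lower, with 12305 against 19203 CPM. Among 21 fibrillar collagens and their partners 4 were at least 2-fold lower and 0 higher, the elastic fibre gene Eln with 1821 against 4317 CPM and the small proteoglycans Lum, Dcn and Ogn. Ogn, osteoglycin, had 79.0 against 329 CPM (4.16-fold lower).

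In the fibrotic state, 2 of 5 smooth muscle genes, Acta2 and Actg2, were at least 2-fold higher in dividing cells and 0 lower, and of 18 genes of the wider contractile list 1 was higher, Acta2, and 0 lower. Acta2 (chr19:34241090-34255590), the smooth muscle actin of myofibroblasts, had 2077 CPM in dividing and 862 CPM in non-dividing fibrotic cells (2.41-fold, 2.37 to 2.46). It was found in 94.4% of dividing and 65.9% of non-dividing fibrotic cells, with median depths of 25009 and 13822 UMIs. Actg2, a second smooth muscle actin, had 173 against 69.7 CPM (2.48-fold), and Tagln, transgelin, 2960 against 2003 CPM (1.48-fold). The fibrotic cells that divided thus had more smooth muscle actin transcripts than those that did not. Over the bleomycin library as a whole the gap in Acta2 level was smaller, 1875 against 1403 CPM (1.34-fold).

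Over all states, the share of cells with Acta2 was higher in dividing cells. Thinned to 5000 UMIs, it was found in 82.2% of dividing (78.8 to 85.3) and 49.2% of non-dividing bleomycin cells (48 to 50.4), and in 89.1% of dividing (76.4 to 96.4) and 31.7% of non-dividing saline cells (30.5 to 33.0). The epithelial-like cluster showed it in 31.0% of bleomycin and 9.76% of saline cells at the same depth. Without thinning, the same kept cells showed it in 93.8% and 61.8% of the bleomycin groups and in 95.7% and 37.0% of the saline groups. Outside the fibrotic state, dividing inflammatory cells had 812 CPM and non-dividing ones 408 CPM, and 143 of 154 dividing cells held the gene. In saline cluster 4, dividing cells had 1109 CPM and non-dividing cells 240 CPM (4.62-fold, 4.25 to 5.02), and 27 of 28 dividing cells held the gene. In the saline adventitial state they had 1079 against 242 CPM, with 16 of 19 cells holding it and 52.0% of the UMIs from 1 cell. In contractile states it was the reverse, with 8400 against 11914 CPM in bleomycin smooth muscle-like, 10253 against 19605 CPM in saline smooth muscle-like, and 4550 against 6927 CPM in bleomycin myofibroblast-like cells.

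Of the wider contractile list, Actn4, an actin crosslinker, was at least 2-fold higher in dividing cells of both libraries, with 162 against 80.8 CPM in bleomycin and 155 against 41.5 CPM in saline. In bleomycin it was the 1 gene higher of 19, with Cnn1, calponin, lower (45.01 against 103 CPM). In saline Myh9, Actn1 and Actn4 were higher of 19 and Zyx lower. The smooth muscle list had 0 higher and 2 lower of 7 in bleomycin, Myh11 and Cnn1, and 1 higher and 0 lower of 7 in saline. The peribronchial and ductal myofibroblast list had 4 lower and 0 higher of 6 in bleomycin, with Hhip, a hedgehog-binding protein, at 34.5 against 97.2 CPM and Aspn, asporin, at 19.4 against 96.2 CPM.

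Of 7 p53 targets measured in the fibrotic state, 2 were at least 2-fold lower in dividing cells and 0 higher. Gdf15, a p53 target and stress cytokine, had 43.1 CPM in dividing and 141 CPM in non-dividing fibrotic cells (3.27-fold lower), and Cdkn1a had 269 against 597 CPM (2.22-fold lower). Of 9 CDK inhibitor and quiescence genes 1 was higher, Cdkn2d, and 2 lower, Cdkn1a and Klf9. Outside these lists, Ccnd2 had 66.5 against 213 CPM (3.20-fold lower). Gas6, a ligand of TAM receptors named for growth arrest, had 54.6 against 269 CPM, and Apoe had 554 against 1812 CPM. Fabp5, a fatty acid carrier, was higher with 59.3 against 19.6 CPM (3.02-fold). In the whole bleomycin library Gdf15 was likewise lower, with 54.1 against 114 CPM (2.11-fold).

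Inside the inflammatory state, 154 dividing cells were set against 3136 non-dividing cells, and 315 of 3013 genes were apart (10.5%), 257 higher (8.53%) and 58 lower (1.92%). Of 11 inflammatory genes 0 were apart, with a median log2 ratio of -0.38, again as a description of placed cells. Of 10 alveolar genes 3 were lower and 0 higher: Inmt with 256 against 850 CPM (3.33-fold lower), Tcf21 with 112 against 242 CPM (2.17-fold lower), and Ces1d (2.48-fold lower). Fst was the fibrotic gene past the line, with 214 against 89.7 CPM (2.38-fold higher). Cxcl10, a chemokine induced by interferon, had 396 against 192 CPM (2.07-fold higher). Tpm2, a tropomyosin, had 482 against 209 CPM (2.31-fold higher), and Cdkn2d was 4.63-fold higher.

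Over all bleomycin cells the inflammatory list was lower for 3 of 10 genes and higher for 0 (median log2 ratio -0.72). Il6, a cytokine, had 330 CPM in dividing and 790 CPM in non-dividing cells (2.40-fold lower), the complement gene C3 had 402 against 901 CPM (2.24-fold lower), and the protease inhibitor gene Serpina3n had 311 against 680 CPM (2.19-fold lower). With depth-matched cells 0 of 10 were apart, with a median of -0.51.

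In saline the inflammatory list was higher, but on few cells. Of 12 genes 6 were at least 2-fold higher and 0 lower (median log2 ratio 1.23, and 0.17 against depth-matched cells). Saa3, an acute phase protein, had 806 CPM in dividing and 250 CPM in non-dividing cells, with 70.2% of the dividing UMIs from 1 cell and a ratio of 0.984 without it. Lcn2, an iron-binding antimicrobial protein, likewise had 73.9% from 1 cell and a ratio of 0.993 without it. Hp, Ccl2, Cxcl5 and Serpina3g stayed at 3.25-, 2.47-, 2.19- and 2.53-fold higher without their top cell. Ccl2, a monocyte chemokine, had 1805 against 550 CPM. Each top cell was taken per gene, and 4 of the 6 genes were past the line without theirs.

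Of 7 fibrotic genes in saline 3 were higher and 0 lower (median log2 ratio 0.87). Postn, periostin, had 173 CPM in dividing and 23.2 CPM in non-dividing cells (7.44-fold, and 5.498-fold without its top cell), and Ltbp2 had 267 against 60.9 CPM (4.39-fold, 3.96-fold without). Tnc had 94.1 against 46.3 CPM (2.03-fold, and 1.70-fold without its top cell, which is short of the line). Spp1 had 41.6 against 2.38 CPM, and all 38 of its UMIs in dividing cells came from 1 cell. In saline smooth muscle-like dividing cells Postn had 990 against 333 CPM, with 110 UMIs spread over all 6 cells. The dividing adventitial cells held 47 Postn UMIs in 2 of 19 cells, 95.7% of them from 1 cell. In cluster 4, the largest dividing saline group, 1 of 28 cells held 1 UMI. The saline Postn value thus lay in the smooth muscle-like cells and in few others.

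Interferon-responding genes were higher in saline for 2 of 6, with Cxcl9 at 78.8 CPM in dividing and 31.0 CPM in non-dividing cells (2.55-fold, and 1.95-fold without its top cell) and Cxcl10 2.09-fold (1.78-fold without). Both were thus short of the line without 1 cell. In bleomycin 0 of 3 were apart. The class I gene H2-Q7 had 361 against 40.6 CPM in saline (8.90-fold), and H2-K1 1547 against 752 CPM.

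Among growth factor genes some were higher and some lower in dividing cells, and the counts over the whole list are not given. Pdgfa and Hbegf, ligands of PDGF and EGF receptors, were at least 2-fold higher in dividing cells of both libraries, with Pdgfa at 117 against 55.6 CPM and Hbegf at 143 against 71.5 CPM in bleomycin. Tgfb1 was higher in saline, with 91.9 against 30.6 CPM. Pdgfra, a receptor of alveolar fibroblasts, was at least 2-fold lower in saline, with 215 against 523 CPM. In bleomycin it had 155 against 307 CPM, which is lower but short of the line. Igfbp3 had 24.1 against 248 CPM (10.3-fold lower) and Hgf, hepatocyte growth factor, was 3.92-fold lower in saline. Lepr (chr4:101717404-101815352), the gene whose Cre marked these cells, had 14.2 CPM in dividing and 62.6 CPM in non-dividing saline cells (4.40-fold lower), and 3.54 and 13.3 CPM in bleomycin, below the 50 CPM floor.

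**Figure D5:**
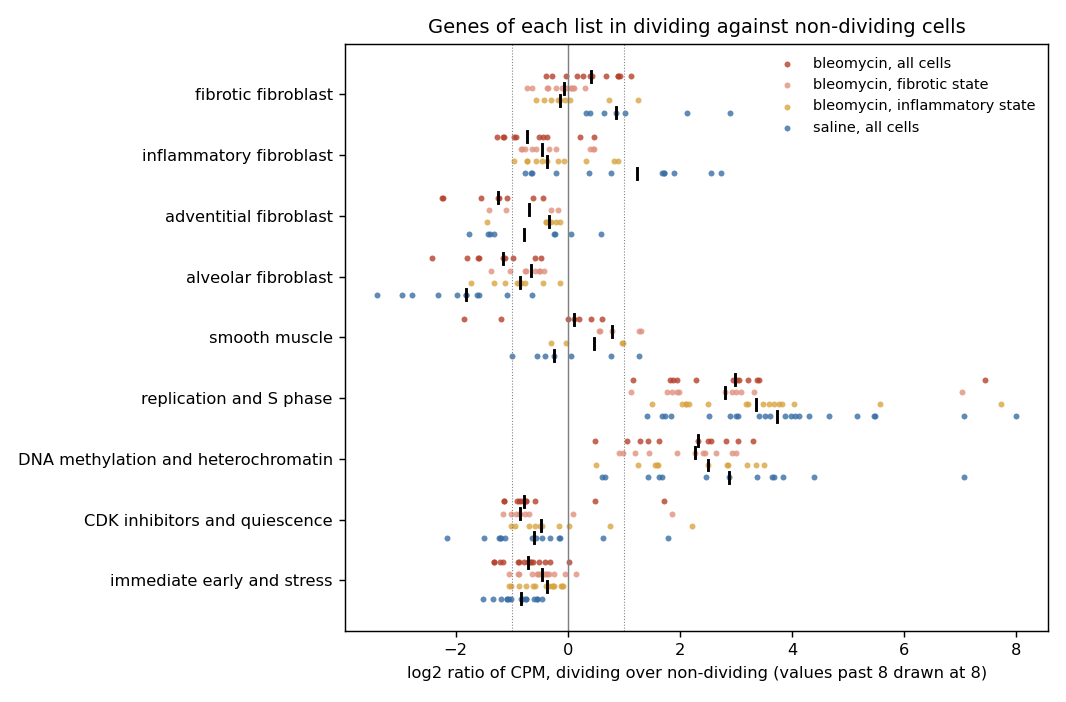
log2 ratio of CPM, dividing over non-dividing, for the genes of 9 lists with at least 50 CPM; points are genes, black ticks list medians and dotted lines the 2-fold limits, for all bleomycin cells, the fibrotic and inflammatory states of bleomycin, and all saline cells. The fibrotic list sits near 0 inside the fibrotic state (median -0.07), while alveolar genes lie to the left in all cells of bleomycin (-1.16) and saline (-1.82).

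Between the dividing cells of the 2 treatments, 317 of 3208 genes were apart (9.88%), 121 higher (3.77%) and 196 lower (6.11%) in bleomycin. Of 12 fibrotic genes 9 were at least 2-fold higher and 0 lower (median log2 ratio 2.08). Spp1 had 8749 CPM in dividing bleomycin and 41.6 CPM in dividing saline cells (210-fold, 153 to 297), the saline UMIs all from 1 cell. Cthrc1 had 418 against 8.76 CPM (47.7-fold, 24.2 to 111), and Fst 503 against 30.7 CPM (16.4-fold). Grem1, a BMP antagonist, had 63.0 CPM against 0 UMIs, at least 19.2-fold higher. Spp1, Cthrc1, Fst and Grem1 passed the floor in bleomycin alone and could not come out lower, so the list count is a description. Fn1, fibronectin, had 3750 against 906 CPM (4.14-fold), and Col1a1 4159 against 1697 CPM (2.45-fold). Of 22 fibrillar collagens and partners 11 were higher and 2 lower. With 1 library each, the treatment and the library cannot be told apart in these differences.

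The non-dividing cells of the same libraries differed in these genes too. Between them 337 of 3016 genes were apart (11.2%), 164 higher (5.44%) and 173 lower (5.74%) in bleomycin (150 higher and 290 lower between the depth-matched cells), and 11 of 11 fibrotic genes were higher (median log2 ratio 2.90). Spp1 had 6495 CPM in non-dividing bleomycin and 2.38 CPM in non-dividing saline cells, and Cthrc1 192 against 0.609 CPM. Spp1 and Cthrc1 passed the floor in bleomycin alone here too, so this count is likewise a description. Acta2 was close in both pairs, at 1875 against 2177 CPM in dividing and 1403 against 1277 CPM in non-dividing cells of bleomycin and saline.

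Of 14 growth factor receptor and ligand genes, 6 were at least 2-fold higher in dividing bleomycin than in dividing saline cells and 0 lower. Inhba had 251 against 35.03 CPM (7.17-fold), and Ereg, an EGF receptor ligand, was 12.99-fold higher. Igfbp2 had 52.1 CPM in dividing bleomycin cells and 1 UMI in all dividing saline cells (1.10 CPM), a ratio of 47.6 with an interval of 8.51 to 1882. Pdgfrb, the PDGF receptor of contractile and perivascular cells, had 94.1 against 24.1 CPM (3.91-fold).

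Of 6 interferon-responding genes 5 were at least 2-fold lower in dividing bleomycin than in dividing saline cells and 0 higher, among them Gbp2 with 22.0 against 120 CPM (5.48-fold lower). H2-K1, a class I antigen-presenting molecule, had 250 against 1547 CPM, and H2-Q7 had 36.3 against 361 CPM; class I genes are near copies and their reads may be split among them. Tpm3-rs7, which leads cluster 4, had 3.40 CPM in dividing bleomycin and 118 CPM in dividing saline cells. In non-dividing cells it had 1.70 and 100.2 CPM. C3 had 402 against 1410 CPM (3.50-fold lower). Of the mitosis list 11 of 49 genes were at least 2-fold lower in bleomycin and 0 higher, Kif23 and Aspm among them, and of the rule genes Nusap1 and Prc1 were lower, which is a description of cells chosen on them.

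Some genes that led a ratio rested on few cells. Ccl5 was 22.2-fold higher in dividing bleomycin cells, with 97.0% of its UMIs from 1 cell and a ratio of 0.667 without that cell. Scgb1a1 and Sftpc, secreted by epithelial cells, were among the genes lowest in dividing bleomycin cells, with Scgb1a1 at 14.6 against 155 CPM. In non-dividing cells 79.3% of the Scgb1a1 UMIs came from 1 cell. In saline Msln was higher in dividing cells (2.25-fold) with all of its 49 UMIs from 1 cell.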

How the data were processed

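Lung mesenchymal cells of 1 bleomycin and 1 saline library were captured with 10x 3' v3 chemistry, per the labels' protocols, and processed with Cell Ranger 6.1.2 against mm10, per the submitters' processing notes. The deposited values are raw UMI counts per gene and cell for 32285 genes, without normalization. The columns left unused numbered 0. The libraries held 134732429 UMIs (bleomycin; median 11662 per cell) and 60937359 UMIs (saline; median 6762).

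Cells with at least 500 genes and at most 10% mitochondrial UMIs were kept. The members and gene lists were chosen with earlier results of these data known. Counts were summed per group and scaled to CPM. Genes with at least 50 CPM in either group, mitochondrial genes left out, were called apart at 2-fold. Named were the 14 rule genes, the list members with at least 50 CPM where their list is described, and the 12 highest and 12 lowest ratios of each comparison outside the cell cycle lists (and the 12 highest inside them); unnamed gene models were left out. Other named genes, such as Lepr in bleomycin, were chosen after their values were seen. Rate intervals are exact 95% Clopper-Pearson intervals and ratio intervals are conditional binomial; PCR copies were collapsed by UMI, and intervals cover counting error only. A count of 0 was taken as up to 3 counts over the group.

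Non-dividing cells of both libraries were clustered on 2000 variable genes outside the cycle lists (30 components, 15 neighbours, Leiden resolution 0.5). A cluster was named from at least 3 markers at 1.5-fold with a list median of at least 0.5 log2; lists within 0.25 left it unnamed, a rule set after seeing the data. Dividing cells were placed by vote of 15 neighbours of their library. Thinning drew 5000 UMIs per cell. The 2-fold rule, the ratio intervals and the thinning were tested on simulated data. Clustering, naming, placement, depth matching, state mixtures and motif counts were not. Tools were python 3.11.15, numpy 2.4.6, scipy 1.17.1, scanpy 1.11.5, scikit-learn 1.9.0 and igraph 0.11.9, with matplotlib 3.10.9 for figures. Promoters came from RefSeq tables, where Tpx2 had no entry, and gene positions from GENCODE on GRCm38.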

Additional observations from a re-analysis of the deposited data

Results flagged for a closer look

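Of the genes apart in both libraries, 2 lay in opposite directions. Rrad, a small GTPase gene of muscle, had 31.7 CPM in dividing and 74.3 CPM in non-dividing bleomycin cells, a ratio of 0.427 (0.387 to 0.469), and 168 CPM in dividing and 70.9 CPM in non-dividing saline cells, a ratio of 2.36 (2.00 to 2.78). Clu, clusterin, a secreted chaperone, had 31.7 CPM in dividing and 108 CPM in non-dividing bleomycin cells, a ratio of 0.294 (0.267 to 0.323), and 160 CPM in dividing and 51.5 CPM in non-dividing saline cells, a ratio of 3.10 (2.61 to 3.66). With 1 library per treatment the difference between the libraries was not tested.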

How the results depend on the processing

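Under the alternatives tried, the sign of the bleomycin fibrotic list median turned (0.42 as reported, -0.026 against depth-matched cells and -0.030 at the state mixture), and no other value changed sign; 40 values moved and are given here, and the other 67 did not move past their counting interval or limit. The bleomycin share of dividing cells was 6.67% with at least 4 rule genes, 4.89% with at least 8, and 4.23% and 2.28% thinned to 5000 and 2000 UMIs; the saline share was 0.354% at 2000 UMIs. With a floor of 10 CPM the genes apart numbered 1043 and 2069 for dividing over non-dividing cells in bleomycin and saline, 1051 between the dividing cells and 779 between the non-dividing cells of the treatments; with 100 CPM they numbered 237, 454, 169 and 203. At 10 CPM the bleomycin list medians (log2) were -1.39 for adventitial and -0.92 for inflammatory genes, and at 100 CPM the saline inflammatory median was 0.57. Median-of-ratios scaling gave 0.37 for fibrotic and -0.77 for inflammatory genes of bleomycin, and leaving out the 5% highest doublet scores gave 0.48 for fibrotic genes. Against depth-matched cells 245 bleomycin genes were apart, with medians of -0.76 (adventitial), -0.026 (fibrotic) and -0.51 (inflammatory), and saline medians of -1.40 (alveolar) and 0.17 (inflammatory). At the state mixture of the dividing cells 255 were apart, with -0.55, -0.030 and -0.39, and saline medians of -1.47 and 0.67. The fibrotic share of dividing bleomycin cells was 56.0% at resolution 1 and 68.9% among cells with all 15 neighbours in 1 cluster, and the dividing share of that state 13.6% at resolution 1. The inflammatory share was 15.7% at resolution 1, 32.2% after thinning and 20.7% with 15 like neighbours. The alveolar share of dividing saline cells was 45.5% at resolution 1 and 52.2% after thinning, against 0 as reported and 1.82% with 5 neighbours voting, and the dividing share of that state 0.448% at resolution 1. The cause of these shifts was not tested. The settings with all 15 neighbours in 1 cluster, without the top cell of a gene, and without mesothelial-like and epithelial-like cells were chosen after seeing the data. The 55 dividing saline cells limit every saline value, and with 1 library per treatment no spread between animals could be given. No paired analysis was possible because each treatment has 1 library.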
